A study of Mus musculus with 24 samples.

Results

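The genes described here encode the nuclear subunits of respiratory complexes I, II and III and of ATP synthase, with the assembly factors of complex I that share the Nduf name, in mouse pancreatic islets. Members were the rows whose NCBI Gene number maps to a mouse symbol beginning with Nduf, Uqcr or Atp5, or to Sdha, Sdhb, Sdhc or Sdhd. The rule found 81 of the 28059 genes in the table. Of these, 78 had at least 1 RPKM (reads per gene, scaled to its length and to the reads of the library) in at least 4 of the 22 libraries used, a minimum that 14342 genes met in all. The 78 comprise 7 core subunits, 29 supernumerary subunits and 8 assembly factors of complex I, 4 subunits of complex II, 8 of complex III and 16 of ATP synthase, with Ndufa4, its relative Ndufa4l2 and 4 pseudogenes. Atp5g2, Ndufb4b and Ndufb4c fell short of the minimum, and Atp5g2, the other gene for the c subunit of ATP synthase, averaged 0.620 RPKM. The rule used symbols and no measured difference. Subunits encoded in the mitochondrial genome were not analysed here.

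Complexes I and II pass electrons from NADH and succinate to coenzyme Q, and complex III passes them on to cytochrome c. Complexes I and III, with complex IV, pump protons out of the matrix, and ATP synthase lets them return and makes ATP. In pancreatic beta cells, ATP made this way when glucose rises closes potassium channels and so leads to insulin release, which makes oxidative phosphorylation part of how these cells sense glucose.

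In this series Cop1, the substrate-recognising part of a ubiquitin ligase, was deleted with Pdx1.CreERT2, a tamoxifen-inducible Cre driven by the promoter of Pdx1, a gene of beta cells. Set 1 holds 3 libraries of Cop1 deletion (Cop1 fl/fl; Pdx1.CreERT2), 4 of the deletion of Cop1 with Etv1, Etv4 and Etv5 (Cop1fl/fl and Etv1fl/fl with Etv4ko/ko and Etv5fl/fl, and the same Cre) and 3 controls (Cop1 fl/fl without Cre). Set 2 holds 4 libraries of Cop1 deletion, 4 of the deletion of Cop1 with Etv4 and Etv5 (Cop1fl/fl with Etv4ko/+ and Etv5fl/fl, and the same Cre) and 4 controls. Floxed Cop1 was thus carried by every group, no group carried Cre alone, and Etv4 was lost in all cells in set 1 and was only heterozygous in set 2. Etv1, Etv4 and Etv5 are transcription factors of the ETS family, and COP1 is known to mark ETV proteins for degradation, so that the groups ask what Cop1 loss changes and which part needs the Etv genes. All mice were 3 to 4 months old, on a mixed background, and their islets were cultured and picked by hand. The sets were read from the sample numbers, and the labels do not tie libraries to mice or cultures, so p-values measure the spread between these libraries, which may be technical.

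Several facts of the libraries bear on what follows. Cop1 was lower in every deletion library than in the controls of its set. Etv4 averaged 1.26 ± 0.30 RPKM (SD, n = 4) in the libraries labelled with Etv1, Etv4 and Etv5 deletion, above Cop1 deletion (0.0646) and control (0.0728), which goes against its label. Control replicate 2 of set 1 held 99.1 RPKM of Esr1, close to the 108 ± 3.2 RPKM of Cop1 deletion (SD, n = 3), against 0.17 and 0.19 RPKM in the other controls of set 1. Part of ESR1, its human counterpart, is built into CreERT2, so this library goes against its label. In set 2, Cop1 deletion replicates 2 and 3 and Etv4/5 replicates 1 and 3 held Y-linked transcripts and no control did. In set 1 every library except control replicate 3 held them. Taking the deepest library as 1, set 1 libraries had a depth of 0.331 to 0.526 and those of set 2 one of 0.758 or more, so set 2 has the smaller counting error. The insulin genes Ins1 and Ins2 held 31.5% to 41.1% of all RPKM in set 1, and in set 2 between 21.0% and 30.7%. Because the libraries are bulk islets, fewer cells of a type and less RNA per cell cannot be told apart in any value given here.

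The promoters that matter most for the later results are those of members that passed the test and one that carries an ETS-type motif. Windows of 250 bases before to 50 after the annotated start came from RefSeq (GRCm38.p6) and were present for 62 of the 74 protein-coding members kept. They were searched on both strands for CCGGAAG (an ETS core), GCGCA and GCGC with 1 base of any kind between them (NRF1) and ATGGCGG (YY1), and capitals mark the match in the lines below, all read 5′ to 3′ on the minus strand of the chromosome. Ndufa1 and Ndufs4, complex I subunits that rose after Cop1 deletion, each hold a YY1-type match at chrX:37191189-37191488 and chr13:114388045-114388344.
Ndufa1: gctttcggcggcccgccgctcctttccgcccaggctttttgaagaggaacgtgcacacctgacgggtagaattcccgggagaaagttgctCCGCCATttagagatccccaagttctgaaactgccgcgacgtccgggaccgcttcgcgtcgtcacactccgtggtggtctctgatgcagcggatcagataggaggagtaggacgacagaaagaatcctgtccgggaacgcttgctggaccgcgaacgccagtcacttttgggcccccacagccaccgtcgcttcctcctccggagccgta
Ndufs4: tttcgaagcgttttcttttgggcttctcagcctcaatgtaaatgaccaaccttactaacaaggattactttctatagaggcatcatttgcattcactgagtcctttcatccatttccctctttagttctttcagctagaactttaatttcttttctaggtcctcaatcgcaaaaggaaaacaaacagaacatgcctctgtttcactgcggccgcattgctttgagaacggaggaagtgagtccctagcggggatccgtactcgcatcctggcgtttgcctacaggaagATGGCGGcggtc
Atp5c1, the gamma subunit of ATP synthase, rose in set 2 and holds an NRF1-type match at chr2:10080383-10080682. Atp5e, the epsilon subunit, did not pass the test and holds the ETS core at chr2:174464052-174464351.
Atp5c1: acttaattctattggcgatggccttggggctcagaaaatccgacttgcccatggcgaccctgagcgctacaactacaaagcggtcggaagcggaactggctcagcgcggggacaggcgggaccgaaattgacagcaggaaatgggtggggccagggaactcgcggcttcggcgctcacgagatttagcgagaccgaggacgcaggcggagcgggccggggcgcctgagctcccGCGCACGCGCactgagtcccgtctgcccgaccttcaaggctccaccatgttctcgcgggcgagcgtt
Atp5e: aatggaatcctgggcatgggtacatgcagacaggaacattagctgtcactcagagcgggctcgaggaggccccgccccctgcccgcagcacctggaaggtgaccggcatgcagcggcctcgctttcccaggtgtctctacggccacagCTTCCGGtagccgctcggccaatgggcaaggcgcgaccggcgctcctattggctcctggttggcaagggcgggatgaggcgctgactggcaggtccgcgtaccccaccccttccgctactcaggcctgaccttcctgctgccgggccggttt
The ETS core was present in 16 of 67 windows of members (23.9%), against 16.5% of windows of the other genes tested and 8.86% of all windows. The NRF1-type motif was present in 18 (26.9%), against 9.44% and 4.60%, and the YY1-type motif in 13 (19.4%), against 7.56% and 4.05%. Of the protein-coding members called in any comparison, 5 have a window and none of these holds the ETS core. The windows of Ndufa4 and Ndufaf2, which also rose, hold none of these motifs and are not printed. A second window of Atp5c1, at chr2:10080461-10080760, holds none either. A window of Ndufs1 was not used here. A match is a description of these letters and says nothing of a bound factor.

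Levels per gene length spanned more than 2 orders of magnitude among the members. The subunits that form the head of ATP synthase led, with a mean over 22 libraries of 346 RPKM for Atp5b (beta, catalytic) and 269 RPKM for Atp5a1 (alpha). They were followed by Atp5g3 (a c subunit gene, 211 RPKM), Atp5e (198 RPKM) and Uqcrq (a small subunit of complex III, 169 RPKM). The supernumerary subunits of complex I with the highest levels were Ndufb9 (115 RPKM), Ndufc2 (105 RPKM), Ndufa6 and Ndufa2 (both 104 RPKM) and Ndufa1 (103 RPKM). The 4 subunits of complex II, which the tricarboxylic acid cycle shares, lay close together, with Sdha at 80.0, Sdhc at 76.1, Sdhd at 67.4 and Sdhb at 66.8 RPKM. Assembly factors, which help build complex I and leave it, ran from 2.90 RPKM (Ndufaf5) to 18.1 RPKM (Ndufaf3).

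**Figure D1:**
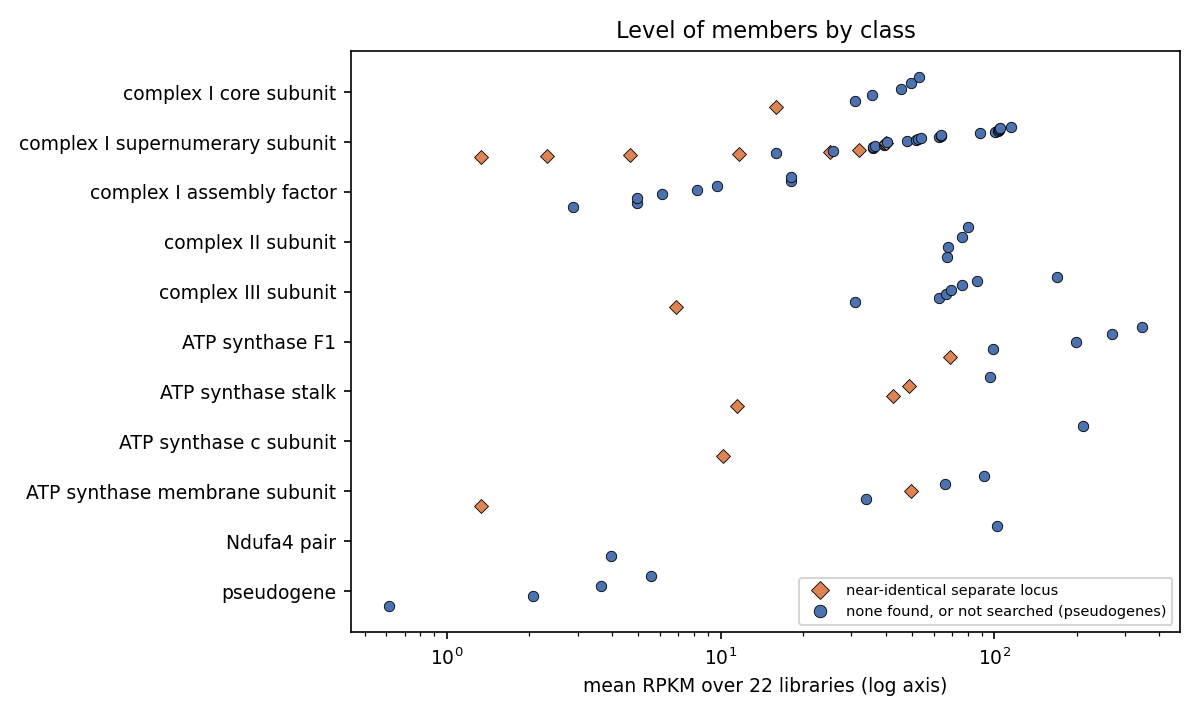
Mean RPKM over 22 libraries on a log axis for members, pseudogenes included, by class, with orange diamonds for genes that have a near-identical locus elsewhere and blue circles for the others. Complex II subunits sit together between 66.8 and 80.0 RPKM, and assembly factors lie lower, between 2.90 and 18.1 RPKM.

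Some subunits of complex I, complex III and ATP synthase were listed at low values, such as Atp5l at 1.33, Ndufb4 at 1.34, Ndufab1 at 2.33, Ndufs5 at 4.65 and Uqcrb at 6.88 RPKM. All 8 structural subunits with a mean under 15 RPKM have a separate locus of at least 95% identity over at least 200 bases, against 8 of 56 at or above 15 RPKM, a threshold chosen after the values were seen. Atp5l has 9 such loci, the closest identical over 394 bases, and Ndufb4 has 1, Ndufb4c, identical over 390 bases. How reads that match several loci were counted is not given in the sources used here, so the levels of these 16 genes are uncertain. Of the members named below as called, Atp5c1 and Ndufs5-ps have such a partner and Ndufa1, Ndufa4, Ndufs1, Ndufs4 and Ndufaf2 do not. Ndufaf2 is overlapped on the opposite strand by B230220B15Rik over 65.6% of its exons. Whether strand was used in counting is not given, so its reads cannot be told apart from those of this neighbour.

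Summed over the 74 protein-coding members, the RPKM per library changed little with genotype. In set 1 the sum averaged 3808 ± 76 RPKM in Cop1 deletion (SD, n = 3) and 3787 ± 92 RPKM in Etv1/4/5 deletion (n = 4), against 3849 ± 86 RPKM in controls (n = 3). In set 2 it averaged 5249 ± 715 RPKM in Cop1 deletion and 5096 ± 172 RPKM in Etv4/5 deletion, against 5068 ± 378 RPKM in controls (n = 4 each). Within each set these group means differed by less than the largest SD of a group. Set 2 Cop1 deletion was the most spread, with 5044, 6286, 4646 and 5020 RPKM in its libraries against 5175, 5394, 5180 and 4522 RPKM in controls, and its range takes in all control values but the lowest. The share of all RPKM depended more on the denominator. It was 0.648 ± 0.0046% in Cop1 deletion and 0.583 ± 0.0048% in Etv1/4/5 deletion, against 0.597 ± 0.023% in controls of set 1. Without Ins1 and Ins2 in the total, the share in set 1 was 0.973% in Cop1 deletion and 0.946% in Etv1/4/5 deletion, against 0.988% in controls. The same shares in set 2 were 1.11 ± 0.12% in Cop1 deletion and 1.11 ± 0.031% in Etv4/5 deletion, against 1.20 ± 0.044% in controls.

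**Figure D2:**
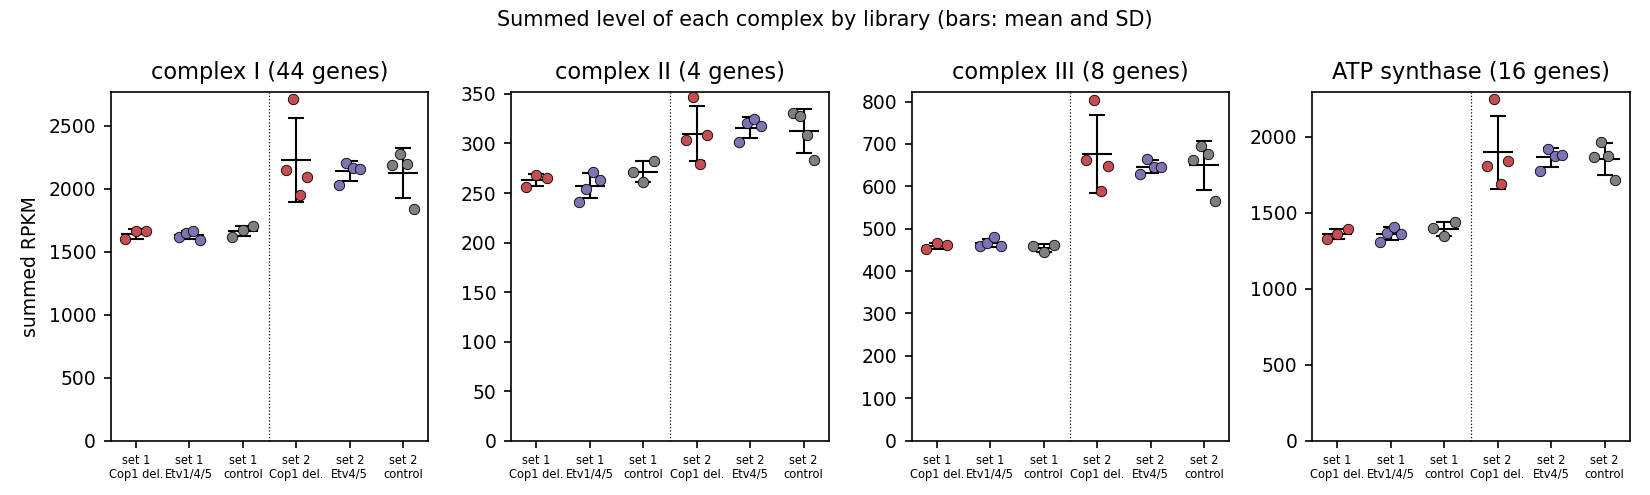
Summed RPKM of the protein-coding members of each complex by library (points), with group mean and SD, where Etv1/4/5 and Etv4/5 stand for deletion of Cop1 with those genes. Complex I sums average 1641, 1631 and 1665 RPKM in the Cop1 deletion, Etv1/4/5 and control groups of set 1, and the set 2 Cop1 deletion libraries spread widest.

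By complex the sums also lay close together within a set. Complex II summed to 263 ± 6.1 RPKM in Cop1 deletion and 257 ± 13 RPKM in Etv1/4/5 deletion, against 272 ± 10 RPKM in controls of set 1. The set 2 sums were 310 ± 28 RPKM in Cop1 deletion and 316 ± 10 RPKM in Etv4/5 deletion, against 313 ± 22 RPKM in controls. ATP synthase summed to 1358 ± 34 and 1361 ± 43 RPKM in the Cop1 and Etv1/4/5 deletions, against 1395 ± 46 RPKM in controls of set 1. In set 2 the sums were 1897 ± 242 and 1863 ± 62 RPKM in the Cop1 and Etv4/5 deletions, against 1854 ± 104 RPKM in controls. Of these group means, only complex II in Etv1/4/5 deletion lay further from its control mean than the larger SD of the pair. Complex III in that group did so too, but higher, at 466.5 ± 9.96 against 455.3 ± 9.45 RPKM in controls.

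Gene by gene, Cop1 deletion left most members close to control, with a few exceptions in complex I. Genes were tested with limma on log2(RPKM + 0.5), which understates changes of low genes, and called at a Benjamini-Hochberg adjusted p below 0.05 over all genes tested. Averaged over both sets, 7 of 78 members were called (8.97%), against 20.1% of all genes tested. Of these, 4 rose (Ndufa1, Ndufa4, Ndufaf2 and Ndufs4; 9.57% of all genes tested rose) and 3 fell (among them Ndufs1 and the pseudogene Ndufs5-ps; 10.5% of all fell). At an unadjusted p below 0.05 there were 14 members (17.9%), against 32.5% of all genes. The median log2 fold change was 0.03 over the members and -0.02 over all genes, and the median size without sign was 0.07 against 0.13. The count was 4 without any 1 of Cop1 deletion replicate 2, 3 or 4 or control replicate 1 or 3 of set 1, or control replicate 2 of set 2. It was 6 without control replicate 2 of set 1, 7 without Cop1 deletion replicates 2 and 3 of set 2, and 5 without all set 2 libraries that hold Y-linked transcripts. These counts do not hold all the same genes. Without control replicate 2 of set 1, Ndufs4 (adjusted p = 0.083) and Ndufs1 (adjusted p = 0.062) were among those no longer called. Without Cop1 deletion replicates 2 and 3 of set 2, Ndufs1 was not called (adjusted p = 0.17).

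The intervals say more than the missed thresholds. The 95% interval of the fold change lay wholly within 1.25-fold either way for 67 members (85.9%), against 50.5% of all genes, and within 1.5-fold for 74 (94.9%), against 82.3%. High expression narrows intervals, so genes of at least 10 mean RPKM were also compared. There 58 of 62 members (93.5%) lay within 1.25-fold against 60.9% of all such genes, and 5 members (8.06%) were called against 25.1%. The median standard error was 0.0695 for these members and 0.0692 for all such genes. The split between higher and lower depends on scaling. With equal total RPKM per library 9 members rose and 2 fell, and with equal totals that leave out Ins1 and Ins2, 3 rose and 10 fell. Over all genes the same scalings gave 1489 higher and 839 lower, and 751 higher and 2590 lower. With library weights 11 members rose and 14 fell, and the count over all genes with weights is not given here.

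**Figure D3:**
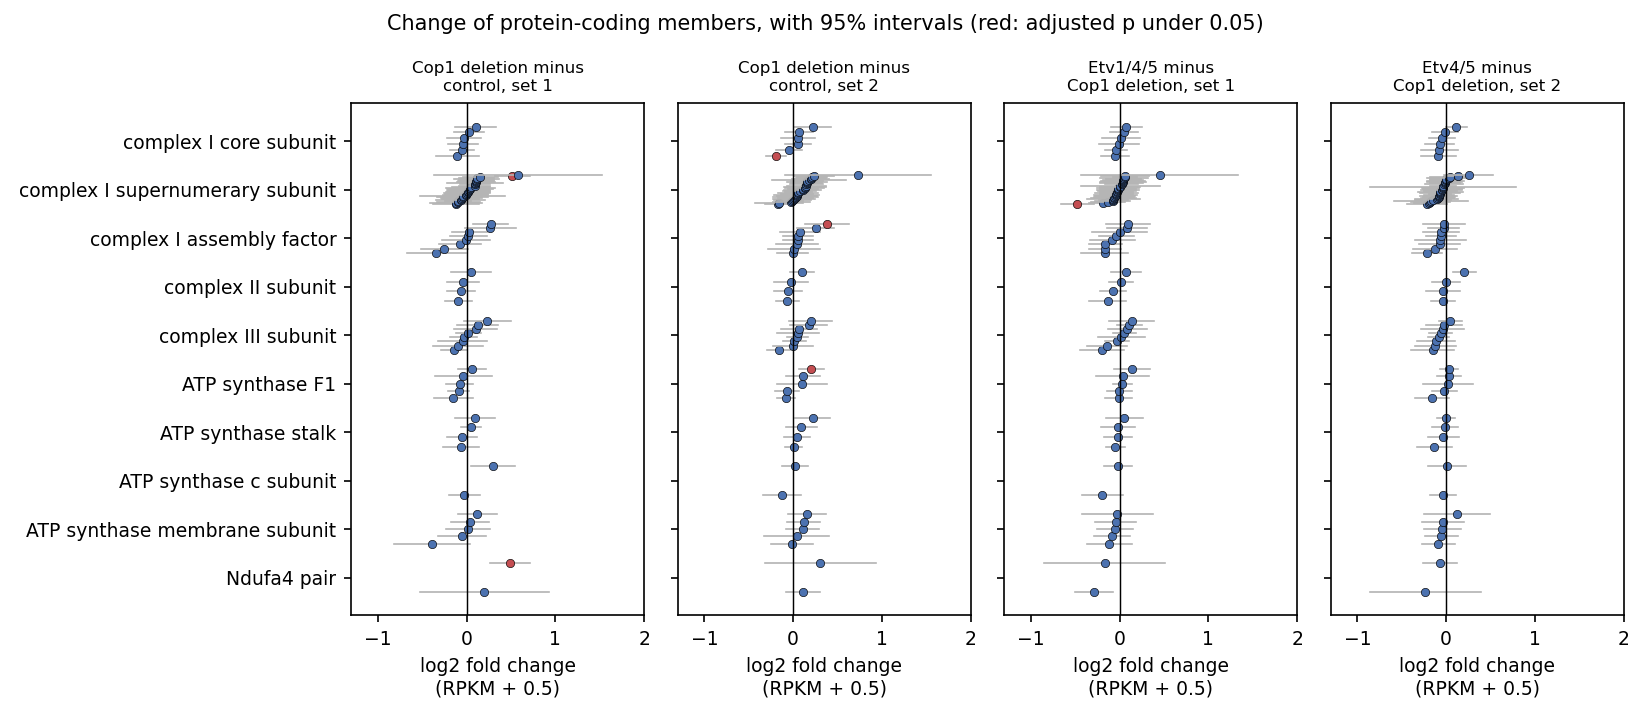
Log2 fold change with its 95% interval for protein-coding members in 4 comparisons within a set, by class, with called genes in red and Etv1/4/5 and Etv4/5 standing for deletion of Cop1 with those genes. Most values lie near 0, and the red points are Ndufa1 (0.52) and Ndufa4 (0.49) in Cop1 deletion of set 1, Ndufaf2 (0.38), Atp5c1 (0.21) and Ndufs1 (-0.19) in set 2, and Ndufa1 (-0.48) in Etv1/4/5 against Cop1 deletion.

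In complex I, 5 of 44 members were called over both sets (11.4%, against 20.1% of all genes). Among its 29 supernumerary subunits, which surround the catalytic core, 2 rose (6.90%, against 9.57% of all genes called higher), none fell and the others ran from -0.06 to 0.66 on the log2 scale. Ndufa1, a small membrane-spanning subunit encoded on the X chromosome, had 114, 119 and 130 RPKM in Cop1 deletion and 88.4, 92.1, 82.9 and 83.8 RPKM in Etv1/4/5 deletion of set 1, against 87.5, 78.6 and 87.3 RPKM in controls. All 3 Cop1 deletion libraries lay above all others of set 1. Set 2 libraries had 105, 142, 104 and 104 RPKM in Cop1 deletion and 107, 120, 116 and 108 RPKM in Etv4/5 deletion, against 96.7, 94.2, 103 and 96.4 RPKM in controls. Here too both deletion groups lay above the controls without overlap, by a narrow margin, and replicate 2 stood apart. Ndufa1 rose by 0.36 (SE 0.064, adjusted p = 0.00039) over both sets and by 0.52 (SE 0.096, adjusted p = 0.0016) in set 1. In set 2 the difference was 0.21 (SE 0.083, adjusted p = 0.079), and 0.10 without replicate 2 of the Cop1 deletion. The difference between the sets was 0.30 (adjusted p = 0.23), and 0.41 (adjusted p = 0.0098) without that replicate.

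Ndufs4, an accessory subunit whose loss causes a mouse model of Leigh syndrome, had 20.3, 19.7 and 19.7 RPKM in Cop1 deletion of set 1, against 17.6, 17.4 and 18.3 RPKM in controls. Set 2 libraries had 31.7, 38.7, 28.4 and 31.3 RPKM in Cop1 deletion, against 29.8, 28.7, 29.7 and 24 RPKM in controls. The groups were apart in set 1 and overlapped in set 2. It rose by 0.18 (SE 0.062, adjusted p = 0.045) over both sets, a call that 18 of 34 alternatives lost, with adjusted p up to 0.18. Leaving out any single library ended it except Etv1/4/5 replicate 1 of set 1 and, in set 2, Cop1 deletion replicate 3 or 4, control replicate 1 or 3 and Etv4/5 replicate 3. Ndufb11, the other X-linked subunit kept, had a fold change of 0.13 on the log2 scale (adjusted p = 0.19).

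The core subunits of complex I carry the flavin, the iron-sulphur clusters and the quinone site. Ndufs1, the largest core subunit, had 26.8, 26.4 and 27.0 RPKM in Cop1 deletion of set 1, against 27.2, 27.3 and 28.8 RPKM in controls. Ndufs1 in set 2 averaged 32.0 ± 2.2 RPKM in Cop1 deletion and 34.6 ± 1.5 RPKM in Etv4/5 deletion, against 36.7 ± 2.7 RPKM in controls (n = 4 each). The groups lay apart by little in set 1, and in set 2 control replicate 4, with 32.6 RPKM, overlapped the deletion. It fell by 0.12 (SE 0.043, adjusted p = 0.048) over both sets, a call that 23 of 34 alternatives lost, and by 0.19 (SE 0.056, adjusted p = 0.022) in set 2. Leaving out any single library ended the first call except, in set 2, Cop1 deletion replicate 1 or 4, control replicate 4 and Etv4/5 replicate 1. The set 2 call ended without Cop1 deletion replicate 2 or 3 or control replicate 1, 2 or 3. Among the other core subunits, Ndufs3, Ndufs7, Ndufs8, Ndufv1 and Ndufv2 ran from -0.01 to 0.08 on the log2 scale, and none was called.

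Among the 8 assembly factors, 1 rose (12.5%, against the same 9.57% of all genes). Ndufaf2, which helps attach the matrix arm late in assembly, had 8.96, 8.52 and 9.70 RPKM in Cop1 deletion of set 1, against 7.60, 7.16 and 7.52 RPKM in controls. Its set 2 values were 10.7, 17.4, 10.8 and 10.9 RPKM in Cop1 deletion and 11, 11.1, 11.8 and 10.8 RPKM in Etv4/5 deletion, against 9.97, 9.17, 9.93 and 7.96 RPKM in controls. Etv1/4/5 deletion of set 1 had 7.36, 9.15, 7.36 and 8.19 RPKM, which overlapped the controls. Cop1 deletion and control did not overlap in either set. It rose by 0.33 (SE 0.090, adjusted p = 0.015) over both sets and by 0.38 (adjusted p = 0.030) in set 2, where without Cop1 deletion replicate 2 it was 0.22 (adjusted p = 0.063). The set 2 call also ended without control replicate 2 or 4. The other assembly factors ran from -0.17 (Ndufaf6) to 0.16 (Ndufaf1).

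Ndufa4, first described in complex I and later placed with complex IV, had 83.5, 81.2 and 79.6 RPKM in Cop1 deletion and 66.1, 64.1, 75.4 and 61.3 RPKM in Etv1/4/5 deletion of set 1, against 53.3, 63.2 and 58.0 RPKM in controls. The 3 Cop1 deletion libraries lay above all others of set 1. Its set 2 mean was 136 ± 23 RPKM in Cop1 deletion and 129 ± 9.9 RPKM in Etv4/5 deletion, against 125 ± 4.0 RPKM in controls, and these groups overlapped. Ndufa4 rose by 0.30 (SE 0.071, adjusted p = 0.0054) over both sets and by 0.49 (SE 0.107, adjusted p = 0.0066) in set 1. In set 2 it was 0.11 (adjusted p = 0.43), and -0.0022 without Cop1 deletion replicate 2, which had 170 RPKM. The difference between the sets was 0.38 (adjusted p = 0.18). Its relative Ndufa4l2, known as a target of hypoxia-inducible factor, averaged 5.40 ± 1.6 RPKM in Cop1 deletion against 4.51 ± 0.31 RPKM in controls of set 1, and 4.06 ± 2.6 against 2.73 ± 0.43 RPKM in set 2, with no call.

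**Figure D4:**
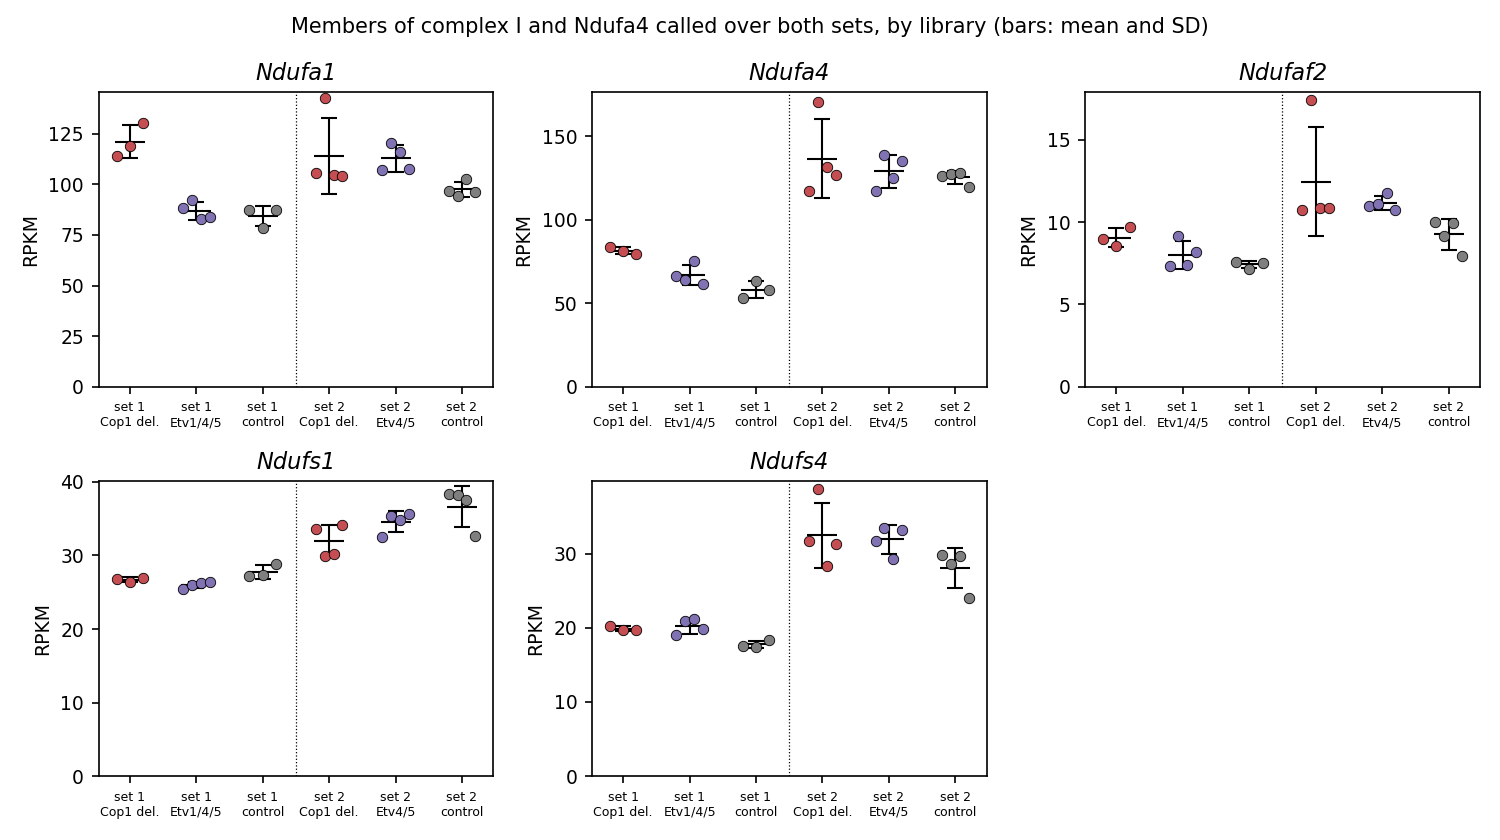
RPKM by library of Ndufa1, Ndufa4, Ndufaf2, Ndufs1 and Ndufs4, with group means and SD, where Etv1/4/5 and Etv4/5 stand for deletion of Cop1 with those genes. The 3 Cop1 deletion libraries of set 1 lie above all others of that set for Ndufa1 and Ndufa4, and set 2 Cop1 deletion replicate 2 is the highest of its group for Ndufa1, Ndufa4, Ndufaf2 and Ndufs4.

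None of the 4 subunits of complex II passed the test, and all 4 had intervals within 1.25-fold over both sets. Sdha, the flavoprotein that oxidises succinate, had 75.7, 79.6 and 77.4 RPKM in Cop1 deletion, against 78.8, 86.3 and 83.0 RPKM in controls of set 1. Its set 2 libraries had 78.6, 77.2, 69.9 and 75.8 RPKM in Cop1 deletion, against 89.6, 79.2, 73.8 and 73.6 RPKM in controls. The groups overlapped in both sets. Its fold change was -0.08 on the log2 scale, and the 4 genes ran from -0.08 to 0.01. In complex III no gene of 8 was called, the fold changes ran from -0.10 (Uqcrc2) to 0.14 (Uqcrh), and all 8 intervals lay within 1.25-fold. Uqcrq, its most abundant gene, had 104, 102 and 105 RPKM in Cop1 deletion, against 89.8, 93.8 and 102 RPKM in controls of set 1. Its set 2 libraries had 238, 274, 186 and 216 RPKM in Cop1 deletion, against 215, 241, 233 and 179 RPKM in controls, and the groups overlapped.

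ATP synthase held no call over both sets among 16 genes, and 15 intervals lay within 1.25-fold. The exception was Atp5l, at -0.17 (interval -0.46 to 0.11), 1 of the low genes with several near-identical loci. Atp5b, the catalytic subunit and the most abundant member, had 257, 255 and 264 RPKM in Cop1 deletion against 278, 271 and 275 RPKM in controls of set 1. The groups did not overlap in set 1. In set 2 they did, with 395, 440, 369 and 409 RPKM in Cop1 deletion against 425, 437, 418 and 418 RPKM in controls. The fold change over both sets was -0.08 (adjusted p = 0.13). Atp5c1, the central shaft of the motor, had 80.9, 92.3, 70.4 and 76.9 RPKM in Cop1 deletion and 76.7, 79.3, 78.8 and 79.5 RPKM in Etv4/5 deletion of set 2, against 69.8, 74.1, 70.6 and 62.4 RPKM in controls. Cop1 deletion replicate 3 lay among the controls and the other deletion libraries lay above them. It rose by 0.21 (SE 0.066, adjusted p = 0.035) in set 2, was 0.06 in set 1 and 0.13 over both sets (adjusted p = 0.072). The set 2 call ended without Cop1 deletion replicate 1 or 2 or control replicate 1, 3 or 4, with 0.14 as the smallest value. The c subunit genes encode the same mature protein. Atp5g3 had a fold change of -0.00, and Atp5g1 was 0.30 in set 1 and -0.12 in set 2, with a difference between the sets of 0.42 (adjusted p = 0.17).

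Taken within each set, 2 of 78 members rose in set 1, Ndufa1 and Ndufa4 (2.56%, against 8.33% of all genes called and 4.04% called higher). In set 2, 4 were called (5.13%, against 18.8% of all genes), with Ndufaf2 and Atp5c1 higher (9.09% of all genes were) and Ndufs1 and Ndufs5-ps lower (9.75%). Intervals lay within 1.25-fold for 44 members (56.4%) in set 1, against 29.7% of all genes, and for 50 (64.1%) in set 2, against 32.4%. For the difference between the sets in the response, limma called 0 members (2.83% of all genes were called), and 7 (8.97%) had an unadjusted p below 0.05, against 17.1% of all genes. The set 1 count was 4 without its control replicate 2 and 5 without Cop1 deletion replicate 2 of set 2, whose spread enters the shared variance. The set 2 count was 2 without Cop1 deletion replicate 2, without control replicate 1, 2 or 3, or without Cop1 deletion replicates 2 and 3. It was 0 without the set 2 libraries that hold Y-linked transcripts, which are all in deletion groups. The difference count was 3 without Cop1 deletion replicate 2 and 1 without control replicate 4 of set 2. Scaling to equal totals gave 14 higher and 0 lower members in set 1, and equal totals without insulin genes gave 0 higher and 13 lower in set 2. With those scalings the median log2 fold change of all genes was 0.12 in set 1 and -0.16 in set 2, against -0.01 and -0.02 without them.

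Ndufs5, a subunit of the intermembrane side, and its pseudogene Ndufs5-ps were the most variable pair. A locus of 99.4% identity to Ndufs5 over 319 bases lies within the pseudogene. Ndufs5 had 7.23, 9.36, 5.40 and 7.40 RPKM in Cop1 deletion of set 2, against 3.40, 4.15, 4.01 and 5.25 RPKM in controls. Ndufs5-ps had 0.48, 0.46, 0.0426 and 0.43 RPKM in Cop1 deletion and 0.28, 0.134, 0.557 and 0.30 RPKM in Etv4/5 deletion, against 6.48, 9.06, 8.53 and 0.254 RPKM in controls. Control replicate 4 was thus low like the deletion libraries. The pseudogene fell by 1.42 (SE 0.456, adjusted p = 0.033) over both sets and by 2.48 (SE 0.596, adjusted p = 0.0070) in set 2, while Ndufs5 was 0.66 over both sets (interval 0.03 to 1.28, adjusted p = 0.13). The call over both sets ended without any 1 of Cop1 deletion replicate 2, 3 or 4 or control replicate 1 or 3 of set 1, or of Cop1 deletion replicate 3 or control replicate 1, 2 or 3 of set 2. Leaving out Cop1 deletion replicates 2 and 3 of set 2 together ended the set 2 call (-2.27, adjusted p = 0.071).

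In set 1 Ndufs5-ps had 8.92, 8.69 and 6.98 RPKM in Cop1 deletion and 9.13, 9.77, 5.10 and 8.23 RPKM in Etv1/4/5 deletion, against 15.5, 3.87 and 19.5 RPKM in controls. Ndufs5 had 0.58, 5.43 and 0.54 RPKM in the same controls. The control library low for the pseudogene, replicate 2, was the one high for Ndufs5, and it also holds Esr1. Reads of the pair cannot be told apart over the shared bases, so neither is read as a change of complex I. The other pseudogenes, Ndufa11b, Atp5c1-ps and Uqcrh-ps1, averaged 1.15 to 1.44, 4.29 to 4.95 and 7.94 to 8.07 RPKM by group in set 1 and at most 0.0241, 0.0213 and 0.0274 RPKM in set 2.

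**Figure D5:**
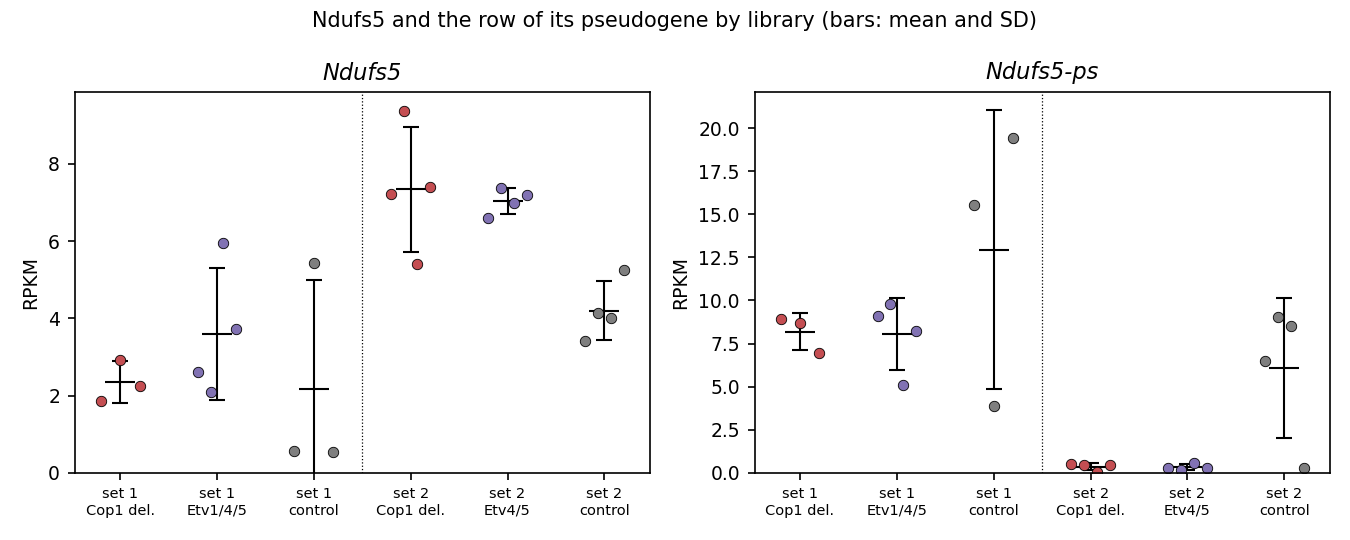
RPKM by library of Ndufs5 and of its pseudogene Ndufs5-ps, with group means and SD, where Etv1/4/5 and Etv4/5 stand for deletion of Cop1 with those genes. Control replicate 4 of set 2 (0.254 RPKM of the pseudogene) lies with the deletion libraries, and control replicate 2 of set 1 is low for the pseudogene (3.87 RPKM) and high for Ndufs5 (5.43 RPKM).

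Removing Etv genes on top of Cop1 gave a call for 1 member. In set 1, Etv1/4/5 deletion against Cop1 deletion gave 1 call of 78 (1.28%, against 6.34% of all genes called and 2.69% called lower), the fall of Ndufa1 by 0.48 (SE 0.090, adjusted p = 0.0023). Ndufa1 averaged 86.8 ± 4.3 RPKM in Etv1/4/5 deletion (n = 4) and 121 ± 8.2 RPKM in Cop1 deletion (n = 3), and against controls, at 84.5 ± 5.1 RPKM, the difference was 0.04 (adjusted p = 0.99). Ndufa4 was -0.29 against Cop1 deletion (adjusted p = 0.097) and was called in 8 of 35 alternatives. Its adjusted p was 0.032 with each set fitted alone and 0.015 when Cop1 deletion replicate 2 of set 2 was left out. The count of members called was 4 without that replicate of set 2 and 15, all lower, with equal total RPKM, where the median of all genes was -0.13. Intervals lay within 1.25-fold for 51 members (65.4%), against 35.6% of all genes. Against controls, 0 members were called by limma (1.32% of all genes were) and 3 (3.85%, against 10.1% of all genes) were below an unadjusted p of 0.05, with 54 intervals (69.2%) within 1.25-fold against 41.7%. That count was 1 without control replicate 2.

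In set 2, where the Etv4/5 group kept Etv1 and was heterozygous for Etv4, Etv4/5 deletion against Cop1 deletion gave 0 calls by limma (1.73% of all genes were called). At an unadjusted p below 0.05 there were 3 (3.85%, against 22.9% of all genes), Ndufaf1 (-0.22), Ndufv3 (-0.19) and Sdha (0.20). Ndufa1 averaged 113 ± 6.5 RPKM in Etv4/5 deletion and 114 ± 19 RPKM in Cop1 deletion, a difference of -0.00 (interval -0.18 to 0.17). Intervals lay within 1.25-fold for 56 members (71.8%), against 39.3% of all genes. The values of 63 of 78 members were below 0 (80.8%, against 47.8% of all genes), with a median of -0.04. In Cop1 deletion against control of set 2, 21 members were below 0 (26.9%, against 52.7% of all genes). Both comparisons share the Cop1 deletion libraries. Protein-coding members summed to 6286 RPKM in replicate 2 of these and to 5044, 4646 and 5020 RPKM in the others. Etv4/5 deletion libraries summed to 4853, 5256, 5136 and 5140 RPKM. The part of replicate 2 in these shares was not tested. Against controls, Etv4/5 deletion had 55 intervals (70.5%) within 1.25-fold, against 39.7% of all genes. It gave 1 call (1.28%, against 8.74% of all genes called and 3.75% called lower), Ndufs5-ps, which fell by 2.52 (SE 0.596, adjusted p = 0.011). That count was 4 without Cop1 deletion replicate 2, and 2 without control replicate 1 or control replicate 4. Both Etv comparisons of a set share libraries with the Cop1 comparison of that set, and the Etv groups of the 2 sets differ in genotype, so they are given side by side.

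Levels of the members differed more between the sets than between genotypes. In controls the median member was 0.35 higher in set 2 than in set 1 on the log2 scale, with 60 of 74 higher (81.1%), against 0.15 and 62.2% over all genes tested. Of 16 members with a near-identical locus, 9 were higher, with a median of 0.13, and of 58 without one 51 were higher, with a median of 0.39. Set, depth and run of sample numbers coincide and cannot be told apart. Y-linked transcripts differed too, held by control replicates 1 and 2 of set 1 and by no control of set 2. Within groups the members of at least 10 RPKM were about as variable as other such genes. Their median coefficient of variation was 4.38% against 4.92% in set 1 Cop1 deletion, and 15% against 13.2% in set 2 Cop1 deletion, the most variable group.

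Markers of other cells moved with some of the groups. The summed level of 10 acinar genes ran from 3760 to 20433 RPKM in Cop1 deletion and from 935 to 3857 RPKM in Etv4/5 deletion of set 2, against 705 to 10850 RPKM in controls. The summed level of 5 duct genes ran from 2502 to 4027 RPKM in Cop1 deletion of set 2, against 1050 to 1533 RPKM in controls, and from 227 to 288 against 140 to 182 RPKM in set 1. These duct ranges lay apart in both sets, and the acinar ranges of set 2 overlapped. By gene, the 4 duct genes tested had log2 fold changes of 0.22 to 1.95 in set 1 and 0.14 to 1.43 in set 2. Pancreatic polypeptide, the marker of PP cells, ran from 4604 to 6260 RPKM in Cop1 deletion of set 1, against 1095 to 2473 RPKM in controls, and from 3716 to 12351 against 2038 to 4529 RPKM in set 2, where the ranges overlapped. The sum of 6 beta cell genes, mostly insulin, ran from 187035 to 204219 RPKM in Cop1 deletion, against 238529 to 269697 RPKM in controls of set 1. In set 2 this sum ran from 125884 to 184973 against 141542 to 189891 RPKM, with overlap. Taken singly, 4 of these 6 genes were called lower in Cop1 deletion in each set, and none was called higher. The median log2 fold change of the 6 was -0.86 in set 1 and -0.57 in set 2. In set 2 the 6 values ran from -3.65 to -0.13. The sum of 2 delta cell genes lay lower in Cop1 deletion without overlap. It ran from 2315 to 2803 RPKM against 3632 to 7089 RPKM in controls of set 1, and from 2186 to 2939 against 3827 to 5466 RPKM in set 2. By gene, the 2 log2 fold changes were -0.96 and -0.04 in set 1 and -0.71 and -0.05 in set 2, so 1 gene moved little. The 8 immune genes ran from 198 to 477 RPKM in Cop1 deletion of set 2, against 77.4 to 152 RPKM in controls, apart from each other, and from 227 to 312 against 217 to 234 RPKM in set 1, with overlap. The part of these in the calls of Ndufa1, Ndufa4 and the other members was not tested.

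Genes of the same pathway outside the naming rule were looked at as lists. Over both sets, 14 nuclear subunits of complex IV gave 1 rise and 1 fall (14.3%, against 20.1% of all genes called). Cox6c, a small subunit, rose by 0.24 (adjusted p = 0.030). Cox6a2, the subunit form typical of heart and muscle, had 13.7, 16.5 and 13.5 RPKM in Cop1 deletion and 51.8, 67.5, 56.6 and 54.7 RPKM in Etv1/4/5 deletion of set 1, against 82.0, 96.0 and 62.0 RPKM in controls. In set 2 it had 16.4, 12.5, 7.08 and 17.5 RPKM in Cop1 deletion and 14.2, 14.4, 15.8 and 14.5 RPKM in Etv4/5 deletion, against 66.4, 79.6, 49.8 and 18.7 RPKM in controls. All deletion libraries of set 2 lay below all its controls. Cox6a2 fell by 2.13 (SE 0.245, adjusted p = 5.2e-06) over both sets, and in set 1 it rose by 1.95 (adjusted p = 0.0014) in Etv1/4/5 deletion against Cop1 deletion. No member of complexes I to III or ATP synthase had a fall of that size outside the pseudogene.

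The lists of factors that build the complexes and supply them were read against the same 20.1% of all genes called in Cop1 deletion over both sets. The shares called were 11.1% of 9 complex I assembly factors named otherwise, 20% of 10 assembly factors of complexes II and III, 28.6% of 7 carriers and 18.8% of 16 regulators of mitochondrial biogenesis. Of the 9 for complex I, Lyrm2 rose by 0.22 (adjusted p = 0.037). Of the 10 for complexes II and III, Sdhaf4 rose by 0.27 (adjusted p = 0.0090) and Ttc19 fell by 0.28 (adjusted p = 0.0012). The 4 assembly factors of ATP synthase, the 1 gene tested of cytochrome c and c1 and the 11 genes of coenzyme Q synthesis gave 0 calls by limma. Of the 7 carriers, Ucp2, an uncoupling protein of beta cells, rose by 0.38 (adjusted p = 0.0014) and Vdac1, a pore of the outer membrane, fell by 0.21 (adjusted p = 0.027). Of the 16 regulators, Tfb1m rose by 0.28 (adjusted p = 0.030), Yy1 fell by 0.14 (adjusted p = 0.029) and Ppargc1a fell by 0.84 (SE 0.144, adjusted p = 0.00031). Single libraries ended the calls of Tfb1m (Cop1 deletion 3 or control 3 of set 1, Cop1 deletion 4 of set 2), Vdac1 (Cop1 deletion 2 or 3 or control 3 of set 1, control 1 or 2 of set 2) and Cox6c (Cop1 deletion 2 or 4 or control 1 of set 1, control 1 or 2 of set 2).

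Ppargc1a encodes PGC-1alpha, a coactivator known to raise the expression of respiratory genes. It had 1.20, 0.96 and 1.21 RPKM in Cop1 deletion and 4.28, 3.71, 2.52 and 2.60 RPKM in Etv1/4/5 deletion of set 1, against 4.20, 5.87 and 2.42 RPKM in controls. The Cop1 deletion libraries lay below all others of set 1. Over all libraries of set 2 it ran from 0.20 to 0.66 RPKM. It fell by 1.46 (SE 0.218, adjusted p = 0.00021) in set 1. In Etv1/4/5 deletion against Cop1 deletion it rose by 1.20 (SE 0.204, adjusted p = 0.0010). Whether its level bears on that of the members was not tested.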

How the data were processed

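RNA was sequenced from cultured, handpicked mouse islets, with column-purified total RNA and standard Illumina libraries, per the labels' protocols. The deposited values are RPKM per gene as made by the authors, and per the submitters' processing notes the build was mm9. Aligner, read counter, annotation and strand setting: not given in the sources used here. Of 24 columns, 22 were placed by sample number, and 2 could not be and were not used. Symbols and promoter windows came from GRCm38.p6 by NCBI Gene number (24998 matched, 3061 did not), and mm9 coordinates were not used.

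Relative depth came from 3086 genes below 0.3 RPKM, where 86.9% to 89.8% of a library's values lay within 0.01 of a whole multiple of the lowest step. Read numbers stay unknown, which leaves no count model. Genes that reached 1 RPKM in 4 or more libraries were fitted on log2(RPKM + 0.5) with limma 3.58.1 (R 4.3.3 with version 1.17.8 of data.table, trend, robust), 1 mean for each of 6 groups, in 8 two-sided contrasts, after a trial on simulated data. Adjusted p is Benjamini-Hochberg over 14342 genes, threshold 0.05. Near-identical loci were found with BLAST+ 2.17.0 in GENCODE transcripts, and summaries were made with Python 3.11.15, pandas 2.3.3 and scipy 1.17.1. The values of 1 member are not reported here by name. The members and lists were chosen with earlier results of these data known. Full statistics are given for called members of smallest adjusted p, values by library for those that lead and for the most abundant member of each complex, and up to 3 called genes are named from each other list. Alternatives were scaling, filter, pseudocount, library weights and leaving out libraries.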

Additional observations from a re-analysis of the deposited data

Results flagged for a closer look

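In 92 groups of 4 libraries, 6 held a library far from the rest, by a gap that chance gives in about 1 group in 20. Cop1 deletion replicate 2 of set 2 was high for Ndufa1, with 142 RPKM, and for Ndufaf2, with 17.4 RPKM. Replicate 3 of that group was low for Ndufs5-ps, with 0.0426 RPKM, and for Atp5g1, with 10.4 RPKM. In set 2 controls, replicate 4 was low for Ndufs1, with 32.6 RPKM, and replicate 1 was high for Atp5g1, with 16.3 RPKM. The response of Ppargc1a to Cop1 deletion differed between the sets, by -1.22 on the log2 scale for set 1 minus set 2 (limma adjusted p = 0.026). It was -0.96 (adjusted p = 0.054) without control replicate 2 of set 1, and also missed the threshold without Cop1 deletion replicate 2, 3 or 4 or control replicate 1 of set 1, or control replicate 1 or 3 of set 2. In every library of set 2 Ppargc1a lay below the minimum of 1 RPKM, and the log2 scale used understates changes of low genes. With a pseudocount of 0.1 the difference between the sets was -1.28 (limma adjusted p = 0.075). How much of this difference comes from the low level in set 2 was not tested.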

How the results depend on the processing

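No paired analysis was possible because replicate numbers follow accession order only. Counts of members called moved as follows. For Cop1 deletion over both sets, 7 became 4 with no filter, 11 with equal totals, 13 with equal totals without insulin genes and 25 with library weights. Over all 14342 genes, 2877 calls became 2328 with equal totals and 3341 with equal totals without insulin genes. Counts over all genes with weights, without the filter, with each set alone or with libraries left out are not given here. Member counts under those settings thus have no share of all genes beside them. For set 1, 2 became 14 with equal totals, 20 with weights, 6 without Cop1 deletion replicates 2 and 3 of set 2 and 4 without set 2 libraries with Y-linked transcripts. For set 2, 4 became 13 with equal totals without insulin genes, 8 with quantile scaling, 2 with each set alone, 14 with weights, 2 without replicates 2 and 3 and 0 without Y-linked libraries. For the set difference, 0 became 7 with equal totals, 2 without insulin genes, 2 with quantiles, 17 with weights, and 2 and 2 without the same libraries. For Etv1/4/5 against Cop1 deletion, 1 became 15, 2, 3 and 10 under those scalings, 3 with each set alone, and 3 and 3 without those libraries. Against control, 0 became 14 with weights. For Etv4/5 against Cop1 deletion, 0 became 1 with quantiles and 5 with weights. Against control, 1 became 2, 4, 4 and 15 under the scalings, 5 without replicates 2 and 3 and 0 without Y-linked libraries. Over all genes, equal totals, equal totals without insulin genes and quantiles gave 1378, 955 and 1343 calls in set 1 (1195 before). They gave 2476, 4681 and 2604 in set 2 (2702 before) and 610, 385 and 462 for the set difference (406 before). Against Cop1 deletion they gave 1628, 721 and 1052 for Etv1/4/5 (909 before) and 173, 175 and 276 for Etv4/5 (248 before). Etv4/5 against control gave 1205, 1742 and 1236 (1253 before). Among the members, leaving out 1 library gave 4 to 7 calls over both sets, 2 to 5 in set 1, 2 to 5 in set 2 and 0 to 3 for the difference. It gave 1 to 4 and 0 to 1 for Etv1/4/5 against Cop1 deletion and control, and 0 to 0 and 1 to 4 for Etv4/5. Ndufa4 in set 2 turned to -0.057 (equal totals without insulin genes), -0.00549 (weights), -0.0397 (without replicates 2 and 3) and -0.0397 (without Y-linked libraries), and ran from -0.0022 to 0.178 with 1 library left out. Ndufs5-ps in set 1 ran from -1.05 to 0.0486, the highest without control replicate 3. Ndufa1 and Ndufa4 over both sets and in set 1, and Ndufaf2 over both sets, kept their call in every alternative run. The cause of these moves was not tested.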
